A study of Mus musculus with 16 samples.

Results

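The Gimap cluster holds the GTPases of immunity-associated proteins, and its 8 genes in the deposited tables were followed here across genotype and culture in mouse CD4 T cells. Gimap1, Gimap3, Gimap4, Gimap5, Gimap6, Gimap7, Gimap8 and Gimap9 were every symbol beginning with Gimap among 23420 genes in the RNA tables, and all 8 were also among 22269 gene intervals in the ChIP tables. All 8 passed the filter on low counts, which left 12845 genes tested. The members were found by name, and the family was selected on its RNA levels across genotype and culture in earlier results of these data, so the counts and p-values below describe its members and support no claim about the family as a class.

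The Ezh2-deleted group (Ezh2 fl/fl.CD4Cre, labelled Ezh2-/-) had both Ezh2 alleles floxed and expressed Cre from a Cd4 transgene, which acts in all cells of the T lineage that pass through Cd4 expression in the thymus. The control group (Ezh2 fl/fl) carried the same floxed alleles without Cre. Naive CD4 T cells were isolated by flow sorting and stimulated with anti-CD3 (5 ug/ml) and anti-CD28 (1 ug/ml). The iTreg cultures received IL-2 (200 U/ml) and TGF-b1 (5 ng/ml), which together induce Foxp3 and a regulatory T cell state, and the Th0 cultures received IL-2 alone (50 U). By the sample titles iTreg cells were taken on day 5 and Th0 cells on day 4, although the protocol states day 4 for the harvest, so culture and day cannot be told apart. Animal ages were not given in the sources used here. RNA was sequenced from 3 biological replicates in each combination of culture and genotype (12 libraries), and H3K27me3 ChIP-seq was done on 2 replicates of each genotype in Th0 cells (4 libraries).

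GIMAP proteins are GTP-binding proteins of lymphocytes, most of them anchored to intracellular membranes, and their genes lie side by side in one conserved cluster. They are known chiefly for lymphocyte survival: in mice and rats, loss of Gimap5 causes T cell loss. Ezh2 is the catalytic subunit of Polycomb repressive complex 2 (PRC2), which places trimethylation on lysine 27 of histone H3 (H3K27me3), a mark of repressed genes.

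By the coordinates of the ChIP tables (mm10), the cluster ran from base 48647234 to base 48766519 of chromosome 6, a span of 119286 bases, in the order Gimap8, Gimap9, Gimap4, Gimap6, Gimap7, Gimap1, Gimap5 and Gimap3. Gimap6 and Gimap3 lie on the minus strand and the other members on the plus strand. Ezh2 itself is on the same chromosome, and its interval ended 1051893 bases before the cluster. Each interval spans a gene with its exons and introns. The interval of Gimap3 (48765089 to 48766519) covers only part of the gene as RefSeq places it (48764464 to 48770851).

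RefSeq (GRCm38.p6) gave upstream sequence for all 8 members, in 9 windows because Gimap8 has a pair of starts. Each window holds the 250 bases before a start. Printed here are the windows of Gimap7 and Gimap5, which had the smallest adjusted p for a genotype effect that differs between cultures, and of Gimap6, which had the largest H3K27me3 change. They run 5' to 3' on the strand of the gene, with every CG dinucleotide in capitals, since CG density is a property by which Polycomb target promoters are often described.
Gimap7 (chr6:48718371-48718620, plus strand): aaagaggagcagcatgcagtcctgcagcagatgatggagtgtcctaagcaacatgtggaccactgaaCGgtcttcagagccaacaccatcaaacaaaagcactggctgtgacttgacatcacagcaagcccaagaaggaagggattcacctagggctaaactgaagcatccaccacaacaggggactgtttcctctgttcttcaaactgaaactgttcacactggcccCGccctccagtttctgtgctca
Gimap5 (chr6:48745947-48746196, plus strand): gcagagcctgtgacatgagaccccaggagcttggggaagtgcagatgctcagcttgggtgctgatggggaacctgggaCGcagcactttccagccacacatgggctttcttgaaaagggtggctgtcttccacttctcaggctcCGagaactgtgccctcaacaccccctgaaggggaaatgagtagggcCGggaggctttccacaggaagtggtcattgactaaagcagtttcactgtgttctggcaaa
Gimap6 (chr6:48708245-48708494, minus strand): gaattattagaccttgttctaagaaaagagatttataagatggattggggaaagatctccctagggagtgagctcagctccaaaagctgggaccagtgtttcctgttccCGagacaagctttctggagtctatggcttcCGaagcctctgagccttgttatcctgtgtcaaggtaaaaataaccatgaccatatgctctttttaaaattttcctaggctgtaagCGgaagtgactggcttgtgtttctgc
The windows were poor in CG dinucleotides, with 2 in Gimap7, 3 in Gimap5 and 3 in Gimap6. The median over 32851 RefSeq windows of the same length was 6, and 8 of the 9 Gimap windows lay below it. The window of Gimap9 held 8 and was the exception, and that of Gimap3 held 1.

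Both strands of these windows were also searched for short letter patterns of T cell transcription factors. The RUNX letters TGTGGT stood in the windows of Gimap4, Gimap7 and Gimap1, against 14.0% of all windows. The ETS letters CGGAAG stood in those of Gimap6 (2 matches), Gimap1 and the downstream window of Gimap8, against 13.6% of all windows. The GAS letters TTCNNNGAA, read by STAT factors, stood in Gimap6 and in the downstream window of Gimap8, against 7.02% of all. FOXO letters (GTAAACA, 3.17% of all) stood in Gimap3. The ISRE letters GAAANNGAA (7.13% of all), the AP-1 letters TGANTCA (6.75%) and the SMAD letters GTCTAGAC (0.167%) matched in none of these windows, which says only that the letters are not there.

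The RNA libraries held 21910114 to 28443427 counted reads and the ChIP libraries 11124172 to 15103496, and values are given as CPM, the reads of a gene scaled to the same total of counted reads in each library. Ezh2 RNA was lower in every Ezh2-deleted library of its culture, at 48.7 to 123.2 CPM against 166.3 to 250.7 CPM in iTreg cells, and at 147.8 to 169.5 CPM against 295.3 to 311.9 CPM in Th0 cells (edgeR adjusted p = 0.0235 in iTreg and 0.0618 in Th0). None of the other 10 listed PRC2 genes was called in either culture. Of all tested genes, 9.45% were called higher and 7.26% lower in iTreg cells, and 8.74% and 3.22% in Th0 cells. Foxp3, which iTreg culture is meant to induce, had 65.2 to 90.9 CPM in Ezh2-deleted iTreg cells, against 849.5 to 979.0 CPM in control iTreg cells. The iTreg label therefore names the culture in both genotypes. Th0 Foxp3 levels were 2.43 to 6.15 CPM in Ezh2-deleted cells and 15.9 to 23.9 CPM in controls.

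A pair of iTreg libraries stood apart from the others of their groups. Ezh2KO.165 differed from the other Ezh2-deleted iTreg libraries by a root mean square of 1.14 and 1.19 log2 units over all tested genes, while those others differed by 0.19. Control 177 differed from the other iTreg controls by 0.69 and 0.63 log2 units, while those differed by 0.22. The same libraries had the highest summed RNA of 16 naive and quiescence genes, at 10706 CPM in Ezh2KO.165 against 2708 and 2860 CPM in its group, and at 8730 CPM in control 177 against 4759 and 5320 CPM in its group. Both libraries numbered Ezh2KO.165 held 25036 or more Xist reads, against 2 to 21 in the other 10 RNA libraries. Their share in the results was not tested beyond leaving them out, and values without them are given where they differ.

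Gimap RNA was highest in Ezh2-deleted iTreg cells. The 8 members summed to 3317 (Ezh2KO.150), 3319 (Ezh2KO.153) and 5675 CPM (Ezh2KO.165) in that group, and to 1567, 1267 and 2400 CPM in iTreg controls 154, 155 and 177. In Th0 cells they summed to 1450, 1791 and 1843 CPM in Ezh2-deleted libraries, and to 2139, 1807 and 1850 CPM in controls 173, 176 and 177. Throughout, values of single libraries follow 1 order. In iTreg cells it is Ezh2KO.150, Ezh2KO.153 and Ezh2KO.165, and controls 154, 155 and 177, and in Th0 cells Ezh2KO.165 comes before Ezh2KO.174 and then Ezh2KO.175, and control 173 before 176 and then 177. The lowest Ezh2-deleted iTreg library was above all 9 libraries of the other groups, while the Th0 genotypes overlapped. In bulk RNA, more transcript per cell and more cells carrying it cannot be told apart.

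**Figure D1:**
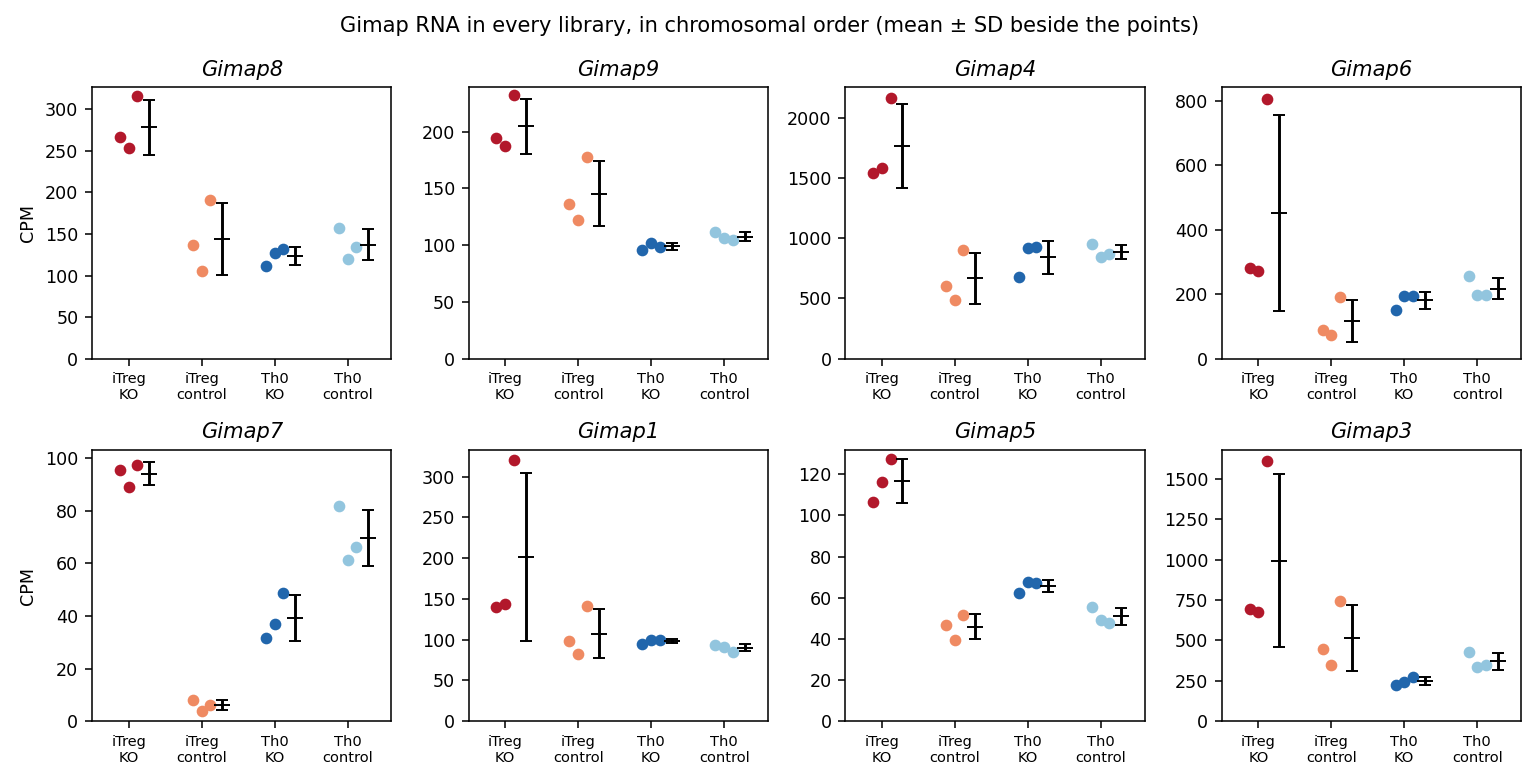
RNA of each Gimap gene (y axis, CPM, from 0) in the 12 libraries, by culture and genotype (x axis), genes in chromosomal order. Points are libraries and the bar beside them is the mean with its SD (n = 3). Gimap7 sits at 4.08 to 7.92 CPM in control iTreg cells, below every other library.

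Compared per kb of exon, the order of the members was similar but not fixed. Gimap3 led in Ezh2-deleted iTreg cells with 463.0 ± 249.2 CPM per kb (SD, n = 3), followed by Gimap6 (280.9 ± 188.9) and Gimap4 (272.8 ± 54.2), and the ranges of these neighbours overlapped. Gimap3 also led in control iTreg cells (239.1 ± 95.4 CPM per kb) without overlapping Gimap9 next to it (105.1 ± 20.7). Gimap4 (130.0 ± 21.7) and Gimap3 (115.9 ± 12.3) overlapped at the top in Ezh2-deleted Th0 cells, while in control Th0 cells Gimap3 (172.7 ± 23.6) lay above Gimap4 (137.6 ± 9.0). Gimap7 changed rank: it ranked 5 of 8 in Ezh2-deleted iTreg cells (74.1 ± 3.44 CPM per kb), 8 in control iTreg cells (4.79 ± 1.52), 7 in Ezh2-deleted Th0 cells (30.9 ± 6.90) and 5 in control Th0 cells (54.9 ± 8.40).

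In iTreg culture, Ezh2 deletion was accompanied by higher Gimap RNA, most of all for Gimap7. Of the 8 members, 6 were called higher at an adjusted p under 0.05 in edgeR's quasi-likelihood test with Benjamini-Hochberg adjustment over all genes. The same test called 9.45% of all tested genes higher and 7.26% lower, and no member lower. The median change was 1.15 log2 units for the members and 0.01 for all tested genes. Every Ezh2-deleted library exceeded every control library for 6 of 8 members, as for 12.7% of tested genes, and none lay below every control library, as 12.8% of tested genes did. Gimap1 and Gimap3 overlapped between genotypes through control 177.

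Gimap7 encodes a GTPase whose human ortholog stimulates GTP hydrolysis by GIMAP2. It had 95.6, 89.1 and 97.4 CPM in Ezh2-deleted iTreg libraries, against 7.92, 4.08 and 6.25 CPM in iTreg controls 154, 155 and 177. For this gene the libraries that stood apart lay close to the others of their groups, and the genotypes did not overlap. The change was 3.95 ± 0.26 log2 units (SE, n = 3 each, edgeR adjusted p = 2e-05). It stayed between 3.73 and 4.19 log2 units with any single library left out.

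Gimap5, a GTPase of lysosomal membranes needed for T cell survival, had 106.4, 116.1 and 127.4 CPM in Ezh2-deleted iTreg libraries, against 47.0, 39.4 and 51.6 CPM in controls 154, 155 and 177. The difference was 1.35 ± 0.12 log2 units (SE, edgeR adjusted p = 0.00011). Gimap4, which promotes the death of lymphocytes once apoptosis has been triggered in mice, had 1539.5, 1582.3 and 2166.9 CPM in the Ezh2-deleted libraries and 606.7, 490.8 and 899.9 CPM in the controls. Its difference was 1.41 ± 0.23 log2 units (SE, edgeR adjusted p = 0.00245). Both genes were separated between genotypes by more than the spread within either.

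Gimap6, which takes part in autophagy and binds an ATG8-family protein, had its largest values in the libraries that stood apart. It had 281.3, 272.7 and 804.5 CPM in Ezh2-deleted iTreg libraries, against 87.8, 72.4 and 190.6 CPM in controls 154, 155 and 177. The genotypes did not overlap. The difference was 1.96 ± 0.47 log2 units (SE, edgeR adjusted p = 0.0179), and it lost its call without control 154 (adjusted p = 0.0711) or control 155 (0.0747).

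Gimap8, the member with several GTP-binding domains, had 266.7, 253.2 and 315.9 CPM in Ezh2-deleted iTreg libraries and 137.2, 105.0 and 190.4 CPM in control iTreg libraries. The difference was 0.96 ± 0.20 log2 units (SE, edgeR adjusted p = 0.00959). Gimap9 moved least, with 194.2, 187.5 and 232.3 CPM in Ezh2-deleted libraries and 136.1, 122.5 and 177.4 CPM in controls, a difference of 0.50 ± 0.14 log2 units (SE, edgeR adjusted p = 0.0344). Its call was lost in 9 of 12 fits that left out 1 library, with adjusted p up to 0.133. Those libraries were iTreg Ezh2KO.150, iTreg controls 154 and 155 and all 6 Th0 libraries.

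The remaining members missed the threshold. Gimap1, which peripheral T and B cells of mice need to survive, had 139.7, 143.7 and 320.5 CPM in Ezh2-deleted iTreg libraries, against 98.2, 82.8 and 141.5 CPM in controls 154, 155 and 177, a difference of 0.91 ± 0.31 log2 units (SE, edgeR adjusted p = 0.0727). Gimap3, a close paralog of Gimap5 with a role in T cell survival in mice, had 694.1, 674.9 and 1610.2 CPM in the Ezh2-deleted and 445.9, 350.1 and 742.7 CPM in the control libraries, a difference of 0.96 ± 0.36 log2 units (SE, edgeR adjusted p = 0.107). Gimap3 and Gimap5 are similar enough in sequence that reads could be shared, and how such reads were counted is not given in the sources used here. A fit of the 6 iTreg libraries alone called fewer genes of any kind than the full fit. It called 2 members, Gimap7 and Gimap5, and left Gimap4 (edgeR adjusted p = 0.0572), Gimap8 (0.119), Gimap6 (0.165) and Gimap9 (0.282) uncalled. Without both libraries that stood apart, all 8 members were called higher. That fit called 7409 of 12978 tested genes in either direction, so the member count is no result about the family.

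In Th0 culture the members did not move together. None was called higher and 1 of 8, Gimap7, was called lower, against 8.74% of all tested genes higher and 3.22% lower. By edgeR's unadjusted p under 0.05, 2 members passed. The median change was -0.17 log2 units for the members and -0.002 for all genes. Every Ezh2-deleted Th0 library was above every control for Gimap1 and Gimap5 (33.2% of tested genes did so) and below every control for Gimap3, Gimap6, Gimap7 and Gimap9 (26.0% of tested genes).

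Gimap7 had 31.7, 37.1 and 48.8 CPM in Ezh2-deleted Th0 libraries, against 81.6, 61.1 and 66.4 CPM in Th0 controls 173, 176 and 177. The groups did not overlap, and the change was -0.86 ± 0.23 log2 units (SE, n = 3 each, edgeR adjusted p = 0.0381). The call was lost without Th0 control 173, 176 or 177, Th0 Ezh2KO.165 or Ezh2KO.174, or iTreg Ezh2KO.150, with adjusted p of 0.0548 to 0.148. Gimap5 had 62.1, 67.6 and 67.0 CPM in Ezh2-deleted Th0 cells and 55.7, 49.1 and 47.9 CPM in controls, a difference of 0.33 ± 0.12 log2 units (SE, edgeR adjusted p = 0.115). Gimap3 had 224.1, 245.1 and 276.5 CPM in Ezh2-deleted Th0 cells and 428.5, 335.6 and 347.4 CPM in controls, a difference of -0.61 ± 0.36 log2 units (SE, edgeR adjusted p = 0.379).

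The other members lay closer to 0 in Th0 cells. Their differences were 0.09 for Gimap1, -0.11 for Gimap4, -0.29 for Gimap6, -0.18 for Gimap8 and -0.15 for Gimap9 in log2 units. Gimap4, the most abundant by CPM, had 678.6, 916.9 and 925.1 CPM in Ezh2-deleted Th0 cells and 955.0, 844.9 and 867.6 CPM in controls, and the sign of its difference turned to 0.02 without Ezh2KO.165. These differences do not show equal levels. The Th0 libraries alone, with their smaller spread, gave 4 members past the threshold (1 higher, 3 lower) among 6397 genes called. The main fit called 1123 genes higher and 413 lower, so calls rose among all genes and the member count is no result about the family.

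The genotype effect differed between the cultures for 3 of 8 members by the interaction term of the same fit, all 3 in the higher direction. The term was called higher for 1.63% and lower for 2.86% of all tested genes. The interaction was 4.81 ± 0.34 log2 units for Gimap7 (SE, edgeR adjusted p = 0.00035), 1.02 ± 0.17 for Gimap5 (adjusted p = 0.00976) and 1.53 ± 0.32 for Gimap4 (adjusted p = 0.0286). For Gimap7 the genotypes differed in opposite directions in the cultures. For Gimap5 both differences were positive, and the one in iTreg cells was the greater. The interaction of Gimap8 was 1.14 ± 0.29 log2 units (SE, edgeR adjusted p = 0.0532), and that of Gimap6 was 2.25 ± 0.65 (adjusted p = 0.0948). Gimap3 had 1.57 ± 0.51 (adjusted p = 0.139), Gimap9 0.65 ± 0.20 (0.109) and Gimap1 0.82 ± 0.43 (0.438). The number of genes called also moved between fits, from 577 in the main fit. The 3 member calls became 2 without iTreg control 154 or 155 or any single Th0 library (271 to 432 genes called), as Gimap4 lost its call. They became 8 without both libraries that stood apart (5347 of 12978 genes called), 5 without iTreg Ezh2KO.165 (2552 of 13025) and 6 without iTreg control 177 (650 of 13057). DESeq2 called 7 members, Gimap8 among them (adjusted p = 0.0032), and 1266 of 12744 genes.

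**Figure D2:**
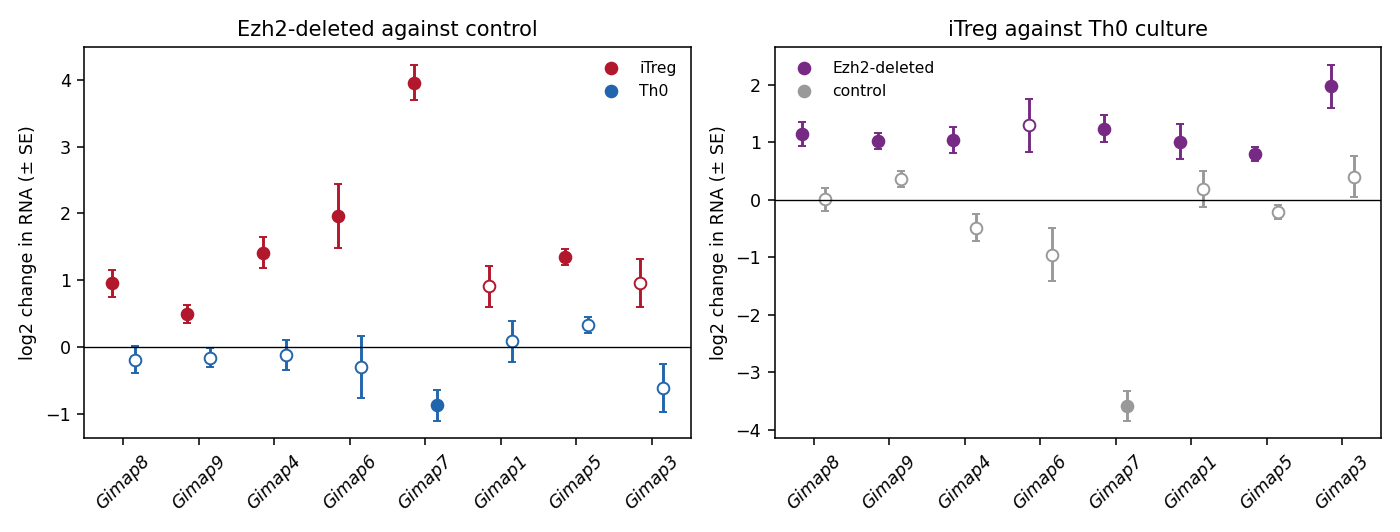
Change in RNA of each member (y axis, log2 units, points with SE from the edgeR fit of 12 libraries, genes in chromosomal order on the x axis). Left, Ezh2-deleted against control in iTreg and Th0 culture; right, iTreg against Th0 in Ezh2-deleted and control cells. Filled points passed an adjusted p of 0.05. In the left panel the iTreg points lie at 0.50 to 3.95 and the Th0 points at -0.86 to 0.33.

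Set against Th0 culture, iTreg culture went with higher Gimap RNA in Ezh2-deleted cells. There 7 of 8 members were called higher and none lower (16.6% of all genes were called higher and 8.75% lower), by 0.80 to 1.97 log2 units, and Gimap6 missed the threshold at 1.29 ± 0.46 log2 units (SE, edgeR adjusted p = 0.0637). Every Ezh2-deleted iTreg library lay above every Ezh2-deleted Th0 library for all 8 members, as for 30.6% of tested genes. The call of Gimap1 (1.01 ± 0.31 log2 units, SE, edgeR adjusted p = 0.0394) was lost in 8 of 12 fits that left out 1 library, with adjusted p of 0.0538 to 0.115, and its change was 0.50 log2 units without Ezh2KO.165. A fit of the 6 Ezh2-deleted libraries alone called 4 members, and it called fewer genes of any kind than the full fit.

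In control cells the iTreg and Th0 levels differed by a call only for Gimap7, which was lower in iTreg cells, with a change of -3.58 ± 0.26 log2 units (SE, n = 3 each, edgeR adjusted p = 3e-05). In the same comparison 19.9% of all genes were called higher and 11.5% lower. The 4.08 to 7.92 CPM of the iTreg controls stood against 61.1 to 81.6 CPM in the Th0 controls. Gimap6 had 87.8, 72.4 and 190.6 CPM in control iTreg cells and 255.0, 198.3 and 197.1 CPM in control Th0 cells without overlap, yet its difference of -0.96 ± 0.46 log2 units was not called (SE, edgeR adjusted p = 0.125). Gimap9 had 136.1, 122.5 and 177.4 CPM in control iTreg cells and 111.9, 106.1 and 104.3 CPM in control Th0 cells, a difference of 0.37 ± 0.14 log2 units (SE, edgeR adjusted p = 0.069). Gimap6 and Gimap7 thus lay below every Th0 control library, as did 29.5% of tested genes, and Gimap9 lay above, as did 39.4%. Without iTreg control 177, Gimap4, Gimap6 and Gimap7 were called lower. Fits that left out a single library called 2004 to 8195 genes in this comparison, so these member calls are no result about the family.

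The balance between Gimap7 and Gimap5, which lie on either side of Gimap1, shifted with these levels. The ratio of Gimap7 to Gimap5 CPM was 0.90, 0.77 and 0.76 in Ezh2-deleted iTreg libraries and 0.17, 0.10 and 0.12 in control iTreg libraries. It was 0.51, 0.55 and 0.73 in Ezh2-deleted Th0 libraries and 1.47, 1.24 and 1.38 in control Th0 libraries. None of the 4 groups overlapped another in this ratio, which ran from control Th0 cells at the top to control iTreg cells at the bottom. The pair was taken with the RNA results of both genes known, and no share over other gene pairs was measured, so the ratio is a description only. Gimap4 alone supplied 37.5% to 51.2% of the members' reads in every library.

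Among the members, Gimap8 and Gimap9 had the most similar profiles over the 12 libraries, with a root mean square difference of 0.21 log2 units after each gene was centred on its mean. Gimap7 was the least like the rest. Against the mean profile of the 8 members its difference was 1.16 log2 units (n = 12 libraries), which ranked 11492 among the tested genes, while Gimap4 was nearest at 0.08. Outside the cluster, the 6 genes nearest to that mean profile included Vps37b, a subunit of the ESCRT-I sorting complex (0.14), Trim12c of the TRIM family (0.19), Trim30a (0.21), H2-M3, a non-classical class I antigen-presenting molecule (0.23), and Trim30d (0.25). The median over all genes was 0.72. Likeness here is a description over libraries that share culture and genotype.

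Vps37b had 146.2, 142.7 and 230.6 CPM in Ezh2-deleted iTreg cells and 48.0, 45.4 and 82.9 CPM in control iTreg cells. In Vps37b, as in every member but Gimap7, libraries Ezh2KO.165 and control 177 had the highest value of their iTreg group.

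**Figure D3:**
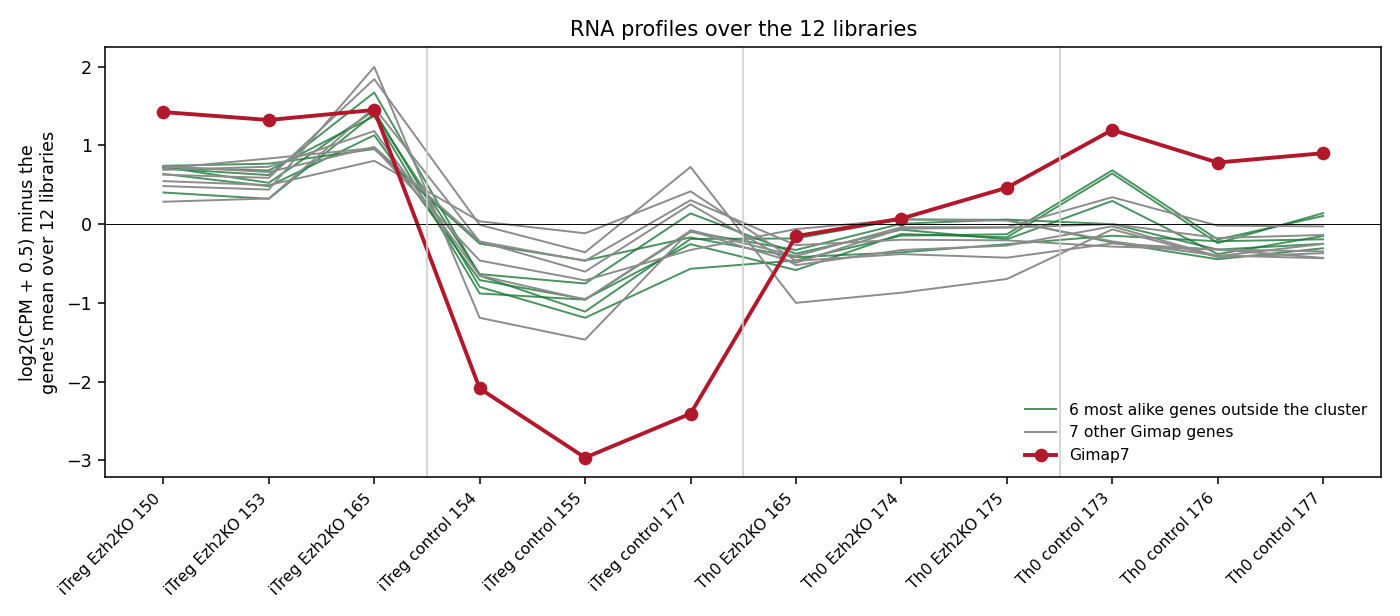
Centred RNA profiles (y axis, log2 of CPM plus 0.5 minus each gene's mean over the 12 libraries on the x axis). Lines join libraries of a gene only to guide the eye: red, Gimap7; grey, the other 7 Gimap genes; green, the 6 genes outside the cluster nearest to the mean Gimap profile. In the 3 control iTreg libraries Gimap7 lies at -2.97 to -2.09, while the lowest point of the other lines is that of Gimap6, at -1.47.

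Other gene groups give context for the iTreg comparison. Of all tested genes, 9.45% were called higher and 7.26% lower in iTreg cells, and 8.74% higher and 3.22% lower in Th0 cells. Of 18 tested interferon-inducible GTPases, a separate family of immune GTPases, 13 were called higher and 0 lower in Ezh2-deleted iTreg cells, with a median of 1.62 log2 units. Gbp11 had the smallest p among them (3.37 ± 0.24 log2 units, SE, edgeR adjusted p = 3.4e-05). In Th0 cells 2 were higher and 2 lower. Of 16 naive and quiescence genes, 0 were higher and 4 lower in Ezh2-deleted iTreg cells, and 1 was higher and 2 lower in Th0 cells. Of 12 ATG8 and autophagy genes, only Gabarapl1, an ATG8-family member, was called higher, in both cultures (1.38 ± 0.12 log2 units in iTreg and 1.16 ± 0.12 in Th0, SE, edgeR adjusted p = 8.1e-05 and 0.00027). None of 10 survival regulators of the Bcl2 family was called in either culture.

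Markers of other cells moved with genotype as well. The summed RNA of 9 B cell markers was 495.2, 216.7 and 243.3 CPM in Ezh2-deleted Th0 libraries, against 73.5, 74.0 and 123.6 CPM in control Th0 libraries. All 9 were called higher, as were 8.74% of all tested genes. In iTreg cells the sum was 54.7, 61.1 and 19.3 CPM in Ezh2-deleted libraries and 29.6, 26.4 and 27.5 CPM in controls. Both CD8 T cell markers together had 138.5, 132.3 and 39.6 CPM in Ezh2-deleted iTreg libraries and 26.7, 26.6 and 18.0 CPM in control iTreg libraries. Cd8a had 121.7, 116.6 and 17.7 CPM in the Ezh2-deleted and 15.8, 17.1 and 8.58 CPM in the control iTreg libraries. Cd8b1 had 16.8, 15.7 and 21.9 CPM against 10.9, 9.46 and 9.43 CPM. Of the 2 markers, 1 was called higher in iTreg cells, as were 9.45% of all tested genes. The NK and gamma-delta T cell markers summed to 42.1, 38.5 and 14.9 CPM in the Ezh2-deleted and 11.2, 6.08 and 3.67 CPM in the control iTreg libraries. Most of that sum was Klrk1 alone, at 40.1, 36.6 and 13.7 CPM in the Ezh2-deleted and 10.7, 5.38 and 3.22 CPM in the controls. Ncr1 and Klra1 had no reads in the Ezh2-deleted iTreg libraries. Myeloid markers stayed at 26.2 CPM or less with S100a8, S100a9 and Elane at 0 in every library, and erythroid markers at 1.09 CPM or less. The myeloid marker Itgam went the other way in the iTreg libraries that stood apart. It had 24.7 CPM in control 177 and 8.08 CPM in Ezh2KO.165, against 2.65 CPM or less in every other library. B cells also express Gimap genes, and the part of any of these cells in the Gimap values was not tested. The 15 T cell identity genes were expressed in every library. In Ezh2-deleted iTreg cells 3 were called higher and 3 lower (9.45% and 7.26% of all tested genes). In Ezh2-deleted Th0 cells 4 were called lower (3.22% of all tested genes).

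The neighbours of the cluster were followed to see whether RNA changes ran past its ends. Of the 5 nearest tested genes on each side, only Tmem176b (1.05 log2 units, edgeR adjusted p = 0.0325) and Gpnmb (1.50 log2 units, adjusted p = 0.0297), both on the Gimap3 side, were called higher in Ezh2-deleted iTreg cells, at means of 12.8 CPM in Ezh2-deleted cells and 6.19 CPM in controls for Tmem176b, and 2.04 and 0.72 CPM in the same groups for Gpnmb. On the Gimap8 side none of AI854703, Zfp775, Repin1, Gm5111 and Lrrc61 was called in iTreg cells. Of all tested genes, 9.45% were called higher and 7.26% lower in iTreg cells, and 8.74% and 3.22% in Th0 cells. Beside those shares, 5 genes on each side are too few to show whether changes ran past the ends. In Th0 cells Igf2bp3, an RNA-binding protein gene 318702 bases beyond Gimap3, was called higher (70.6 ± 8.32 CPM in Ezh2-deleted cells and 8.25 ± 0.31 CPM in controls, SD, n = 3 each) and Zfp775 lower.

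H3K27me3 was low over the Gimap genes in control Th0 cells. Density over a gene interval, in CPM per kb, was 0.30 to 0.75 in control 33 and 0.19 to 0.56 in control 7, and all 8 members lay below the median of all intervals in both (0.88 and 0.92). In Ezh2-deleted cells it was 0.53 to 1.03 in Ezh2KO.10 and 0.93 to 1.51 in Ezh2KO.9, with 4 and 0 members below the library medians (0.99 and 0.92). By mean density the members ranked from percentile 8.93 (Gimap9) to percentile 82.98 (Gimap3) of all intervals in Ezh2-deleted cells, and from percentile 2.58 (Gimap9) to percentile 38.9 (Gimap3) in control cells.

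**Figure D4:**
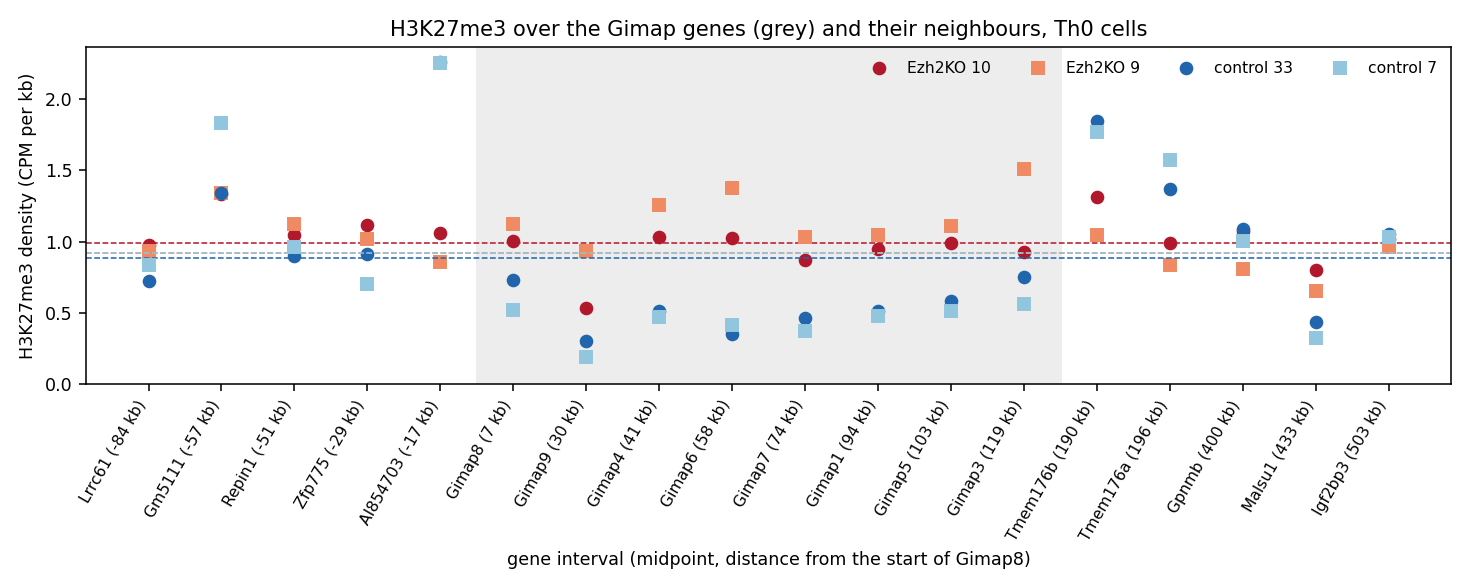
H3K27me3 density (y axis, CPM per kb of gene interval, from 0) in the 4 Th0 ChIP libraries over the Gimap genes (grey band) and 5 RNA-tested neighbours on each side, in chromosomal order with the distance of each midpoint from the start of Gimap8. Dashed lines are the medians of all intervals in each library. In the grey band the control points lie at 0.19 to 0.75 and the Ezh2-deleted points at 0.53 to 1.51.

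Normalized to library size, 7 of 8 members carried more H3K27me3 reads in Ezh2-deleted Th0 cells by edgeR's quasi-likelihood test (n = 2 each), by 0.77 to 1.64 log2 units. The test called 32.2% of all intervals higher and 20.6% lower, and the median over all intervals was 0.21 log2 units against 1.09 for the members. Scaling turned the split of all calls: 6570 were higher and 4205 lower by library size, 4956 and 5699 with TMM scaling, and 3829 and 4867 with DESeq2. Under TMM, which put the median of all intervals at -0.02, the members' median was 0.86 and 6 were called. DESeq2 called 2 of the 6 members for which it gave an adjusted p. With only 1 Ezh2-deleted library kept, the spread comes from the 2 controls and the lone library is assumed to vary like them. Those fits called 0 members and 0 intervals, with 6 members (without Ezh2KO.10) and 3 (without Ezh2KO.9) at an unadjusted edgeR p under 0.05, while the members' median change was 1.25 and 0.998 log2 units. No spike-in or input library was used here, so these are shares of a library and not amounts of the mark.

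Gimap6 had 103 and 102 reads in Ezh2KO.10 and Ezh2KO.9, against 26 and 34 in controls 33 and 7, densities of 1.03 and 1.38 against 0.35 and 0.41 CPM per kb. This was the largest change of the members (1.64 ± 0.31 log2 units, SE, edgeR adjusted p = 0.00187). Gimap9 had 24 and 31 reads in the Ezh2-deleted libraries and 10 and 7 in the controls (1.55 ± 0.46 log2 units, SE, adjusted p = 0.0147), few enough that counting error is large. Gimap7 had 79 and 69 reads in the Ezh2-deleted libraries and 31 and 28 in the controls (1.18 ± 0.31 log2 units, SE, edgeR adjusted p = 0.00859). Gimap3, over its partial interval, had 20 and 24 reads in the Ezh2-deleted libraries and 12 and 10 in the controls and was not called (0.86 ± 0.43 log2 units, SE, edgeR adjusted p = 0.116). The density of every member was higher in both Ezh2-deleted libraries than in both controls, as it was for 47.6% of all intervals.

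That difference was shared by intervals of like control density. Among 8157 intervals with a mean control density no greater than that of the highest member, 91.9% were higher in both Ezh2-deleted libraries than in both controls, with a median ratio of 1.94. The members' median ratio was 2.14. Of the 10 neighbours, 2 were called, where 32.2% of all intervals were called higher and 20.6% lower. AI854703, next to Gimap8, had densities of 1.06 and 0.86 CPM per kb in Ezh2-deleted cells and 2.26 and 2.25 in controls (-1.23 log2 units, edgeR adjusted p = 0.00302). Malsu1 had 0.80 and 0.65 CPM per kb in Ezh2-deleted cells and 0.44 and 0.32 in controls (0.94 log2 units, adjusted p = 0.0151). No H3K27me3 library of iTreg cells was analysed here, so the RNA differences in iTreg culture have no ChIP values beside them.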

How the data were processed

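Per the submitters' processing notes, reads were trimmed with Trimmomatic 0.30, aligned to mm10 with TopHat2 2.0.6 (RNA) or Bowtie2 2.1.0 (ChIP) and counted with featureCounts 1.4.2. The values deposited by the authors are raw read counts per gene (RNA, 12 libraries) and per gene interval (ChIP, 4 libraries). Strand use and the handling of reads with several matches are not given in the sources used here. Library sizes were the sums of all counted reads.

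The test of RNA counts was that of edgeR 4.0.16 (R 4.3.3), with library sizes scaled by TMM, low genes removed by filterByExpr (minimum count 10) and a robust quasi-likelihood F test of 4 groups in 1 fit of 12 libraries. ChIP counts were tested the same way in 4 libraries, scaled by library size alone (20376 intervals). Tests were two-sided, p-values were adjusted by Benjamini-Hochberg over all features, and the threshold was 0.05. Alternatives were DESeq2 1.42.0, other scalings, no low-count filter, fits on the 6 libraries of a single culture or genotype, a limma 3.58.1 voom fit with a replicate block, and leaving out libraries. Likeness used log2(CPM + 0.5). Scripts were tested on simulated data.

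Members and the 14 gene lists were chosen with earlier results of these data known. Named genes were the 8 members, Ezh2, 5 tested neighbours on each side, the 6 most alike genes (1 of which is not reported here), and up to 3 of each list with the smallest p; individual genes beyond these (Foxp3, Xist, and single zero-count markers) are given as checks.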

Additional observations from a re-analysis of the deposited data

Results flagged for a closer look

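The genotype effect differed between iTreg and Th0 culture for Gimap7, Gimap5 and Gimap4 by the interaction term of the edgeR fit. The effect in iTreg cells exceeded that in Th0 cells by 4.81 log2 units for Gimap7 (adjusted p = 0.00035), by 1.02 for Gimap5 (adjusted p = 0.00976) and by 1.53 for Gimap4 (adjusted p = 0.0286). Leaving out any single library kept Gimap7 between 4.60 and 5.05 log2 units (adjusted p up to 0.00233) and Gimap5 between 0.92 and 1.10 (adjusted p up to 0.0354). Gimap4 stayed between 1.35 and 1.80 log2 units but lost its call without iTreg control 154 or 155 or any of the 6 Th0 libraries, with adjusted p of 0.058 to 0.0861. The difference of culture includes a difference of day in the titles.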

How the results depend on the processing

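No genotype groups shared replicate numbers, while Ezh2KO.165 and control 177 each occur in both cultures. A fit with those numbers as a replicate block (consensus correlation -0.00866) called 1 member in Th0, 6 in iTreg, 4 for the interaction and 1 (control) and 6 (Ezh2-deleted) between cultures, calling Gimap8 for the interaction (adjusted p = 0.0475), losing Gimap1 between cultures in Ezh2-deleted cells (0.0510), and putting Gimap8 between cultures in controls at -0.033 log2 units. DESeq2 called 2359 genes in Th0 (edgeR 1536), 1266 genes and 7 members for the interaction (577 and 3), 2 members between cultures in controls (1, and 2 with library size scaling) and 2 of the 6 members with an adjusted p for H3K27me3 (7 of 8). Fits on 6 libraries called 6397 genes and 4 members in Th0, 539 genes (2147 in the full fit) and 2 members in iTreg, 596 genes (3262) and 4 members between cultures in Ezh2-deleted cells, and 6500 genes (4027) between cultures in controls. Without both iTreg libraries that stood apart, 12978 genes were tested. Calls were then 6697 genes and 4 members in Th0, 7409 genes in iTreg, 5347 genes and 8 members for the interaction, 7481 genes between cultures in Ezh2-deleted cells, and 8673 genes and 5 members in controls. The sign turned only for values near 0 that were never called: between cultures in controls, Gimap8 (0.003) went to -0.020 with DESeq2, -0.0064 with no filter, -0.040 in 6 libraries and -0.24 without both, and Gimap1 (0.18) to -0.057 without both.

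Leaving out 1 library each gave 799 to 3529 genes and 0 to 2 members in Th0, 1376 to 5763 genes and 4 to 8 members in iTreg, and 271 to 2552 genes and 2 to 6 members for the interaction. It gave 1110 to 4316 genes and 5 to 8 members between cultures in Ezh2-deleted cells, 2004 to 8195 genes and 1 to 3 members in controls, and 0 to 12648 intervals and 0 to 7 members for H3K27me3. The values that turned sign ranged from -0.058 to 0.34 (Gimap1, cultures in controls), -0.24 to 0.18 (Gimap8, cultures in controls) and -0.20 to 0.019 (Gimap4, Th0 genotype). The highest counts of genes came without iTreg Ezh2KO.165, apart from Ezh2-deleted cells between cultures (without iTreg Ezh2KO.153). With 2 ChIP libraries per genotype and 7 to 207 reads per member, all H3K27me3 calls were lost when either Ezh2-deleted library was left out, the spread then coming from the 2 controls. The causes were not tested.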
